A study of Mus musculus with 12 samples.

Results

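The surface molecules that immunologists use to sort conventional dendritic cells (cDCs) into their subsets were followed at the mRNA level in a mouse dendritic cell line. The genes are Xcr1, Clec9a, Cadm1, Cd8a and Cd24a (markers of cDC1 cells), Sirpa, Cd209a and Cd4 (markers of cDC2 cells), Itgax (the CD11c that cDCs share) and Adgre1 (F4/80, a macrophage marker). They were chosen by name, with earlier results of these data known, and are 10 of the 55401 genes in the table. The cells were Sp37A3, an immature line derived from C57BL/6 mouse spleen and kept in GM-CSF and M-CSF. RNA sequencing covered a line transduced with empty vector (CtrV, described in the study as expressing Siglec-E) and a line edited with CRISPR/Cas9 at Siglece (EKO), which was made by pooling several sorted clones. Cells of each line were either left unpulsed or pulsed with ovalbumin (OVA), which gave 4 groups. The study describes LPS for 24 h after the pulse. Its RNA-seq methods do not say whether unpulsed cells received LPS, and all libraries are labelled with 24 h of processing. Each group had 3 libraries, 12 in all. There is 1 vector line and 1 edited pool, so knockout and line history cannot be told apart, and the p-values below measure the spread between libraries of these lines.

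cDC1 cells take up dying cells and present their antigens to CD8+ T cells, whereas cDC2 cells mainly prime CD4+ T cells. In mouse spleen, cDC1 cells carry XCR1, CLEC9A, CADM1, CD24 and the CD8α homodimer, and cDC2 cells carry SIRPα and, on many of them, CD4. Among transcription factors, IRF8 and BATF3 are needed for cDC1 cells and IRF4 for cDC2 cells. The markers are read by antibody on the cell surface; what was measured here is their mRNA.

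Library totals lay between 27116201 and 39698572 counts, and levels are given as CPM, a count relative to the library total after TMM scaling. On that scale 3 counts, taken as the smallest visible level, equalled 0.0785 to 0.110 CPM. The label of the edited cells was checked on Siglece itself. In CtrV cells Siglece had 153, 150 and 162 CPM without OVA and 152, 153 and 163 with OVA, and in EKO cells it had 166, 222 and 235 without OVA and 174, 208 and 202 with OVA. Siglece mRNA was thus not lower in the EKO-labelled libraries (log2 fold change 0.36 ± 0.06, SE, adjusted p = 0.00037, edgeR), and the mRNA does not check the edit. The study reports that the clones it pooled were screened for Siglec-E expression and had little or none. All directions below are those of the libraries labelled EKO against those labelled CtrV. As a dendritic cell line, the cells had MHC class II and Zbtb46 mRNA (68.5 ± 7.39 CPM in CtrV and 66.2 ± 9.58 in EKO, SD, n = 6 each) in every library, whereas Kit had at most 1 count in any library. Both EKO replicate 1 libraries stood apart from the other EKO libraries (chi-square per degree of freedom over genes of 23.7 to 41.8 against replicates 2 and 3, and 6.98 and 10.97 between those). Unpulsed CtrV replicate 3 also stood apart from its group (21.7 and 23.6, against 4.58 between replicates 1 and 2), and no pair of replicates looked like 1 library deposited again. OVA-pulsed CtrV replicate 1 stood apart to a smaller degree (13.2 and 19.5, against 7.43 between replicates 2 and 3). Marker results that depend on such libraries are given with and without them.

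Promoter windows of 250 bases before the RefSeq start were given for 5 of the 10 genes (RefSeq, GRCm38.p6, the build also called mm10). They are shown for Xcr1, Cd209a and Itgax, whose mRNA differed between the lines, and for Cd8a, whose window held the lineage-factor motif searched for. Each reads 5′ to 3′ on the strand of the gene, and capitals mark motif matches.
Xcr1, chr9:123862030-123862279, minus strand: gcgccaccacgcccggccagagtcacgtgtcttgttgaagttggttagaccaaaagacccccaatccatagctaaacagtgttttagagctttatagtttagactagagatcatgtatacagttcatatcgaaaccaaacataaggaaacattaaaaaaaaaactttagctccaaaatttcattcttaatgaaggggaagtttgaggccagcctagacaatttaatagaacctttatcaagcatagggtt
Cd209a, chr8:3748985-3749234, minus strand: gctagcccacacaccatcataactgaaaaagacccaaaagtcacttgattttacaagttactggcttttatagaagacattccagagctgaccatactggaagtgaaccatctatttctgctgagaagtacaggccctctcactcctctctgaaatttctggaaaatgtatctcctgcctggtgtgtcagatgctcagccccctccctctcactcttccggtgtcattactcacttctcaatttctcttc
Cd8a, chr6:71373177-71373426, plus strand: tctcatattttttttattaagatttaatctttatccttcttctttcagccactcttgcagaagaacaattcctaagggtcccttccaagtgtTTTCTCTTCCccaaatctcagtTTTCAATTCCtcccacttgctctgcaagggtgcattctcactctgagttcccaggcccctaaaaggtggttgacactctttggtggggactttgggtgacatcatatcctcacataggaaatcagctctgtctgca
Itgax, chr7:128129300-128129549, plus strand: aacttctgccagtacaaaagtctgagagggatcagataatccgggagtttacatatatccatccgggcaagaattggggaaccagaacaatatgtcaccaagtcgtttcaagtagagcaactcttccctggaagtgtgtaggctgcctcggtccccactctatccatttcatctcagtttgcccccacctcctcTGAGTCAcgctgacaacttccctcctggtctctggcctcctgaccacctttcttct
The motifs were the ETS-IRF composite element GGAANNGAAA, which PU.1 binds together with IRF4 or IRF8, the interferon-stimulated response element core GAAANNGAAA, the AP-1 site TGANTCA and the AP-1-IRF composite element GAAATGANTCA, which BATF3 can bind with a JUN protein and an IRF. Both strands were searched. The letters of the AP-1-IRF element include those of the AP-1 site, and the other motifs cannot match at the same position. The window of Cd8a held 2 ETS-IRF elements on its minus strand, 158 to 149 and 136 to 127 bases before the start. That of Itgax held 1 AP-1 site, 56 to 50 bases before the start. No match was found in the windows of Xcr1, Cd209a and Clec9a. Of 32851 windows of the same length, 2.3% held the ETS-IRF element, 2.98% the response element core, 6.75% the AP-1 site and 0.1% the AP-1-IRF element. A match describes letters in the window and says nothing of binding.

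Between the lines, the subset markers moved in different directions. Averaged over pulsing, Xcr1 and Cd209a were higher in EKO-labelled cells, Cd24a and Itgax were lower, and Sirpa and Adgre1 did not pass the test. Clec9a and Cadm1 were not detectable at this depth, and Cd8a and Cd4 were seen at a few counts per library. A gene was tested where its log2 CPM exceeded 0 in at least 2 libraries, which 6 of the 10 genes did. Xcr1 passed only through 3 EKO libraries, and a gene that passes in this way has to be high there. Calls were made at an adjusted p under 0.05 over all 14079 tested genes. With 4 of 6 tested markers called, or 3 of 5 without Xcr1, the share was near that of the table, where 60.5% of tested genes were called (31.3% higher and 29.1% lower in EKO). The median log2 fold change was -0.0025 for the 6 markers and -0.0018 for all tested genes. With OVA alone the same 4 markers were called, against 47.0% of all genes, and without OVA again the same 4, against 46.4%.

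**Figure D1:**
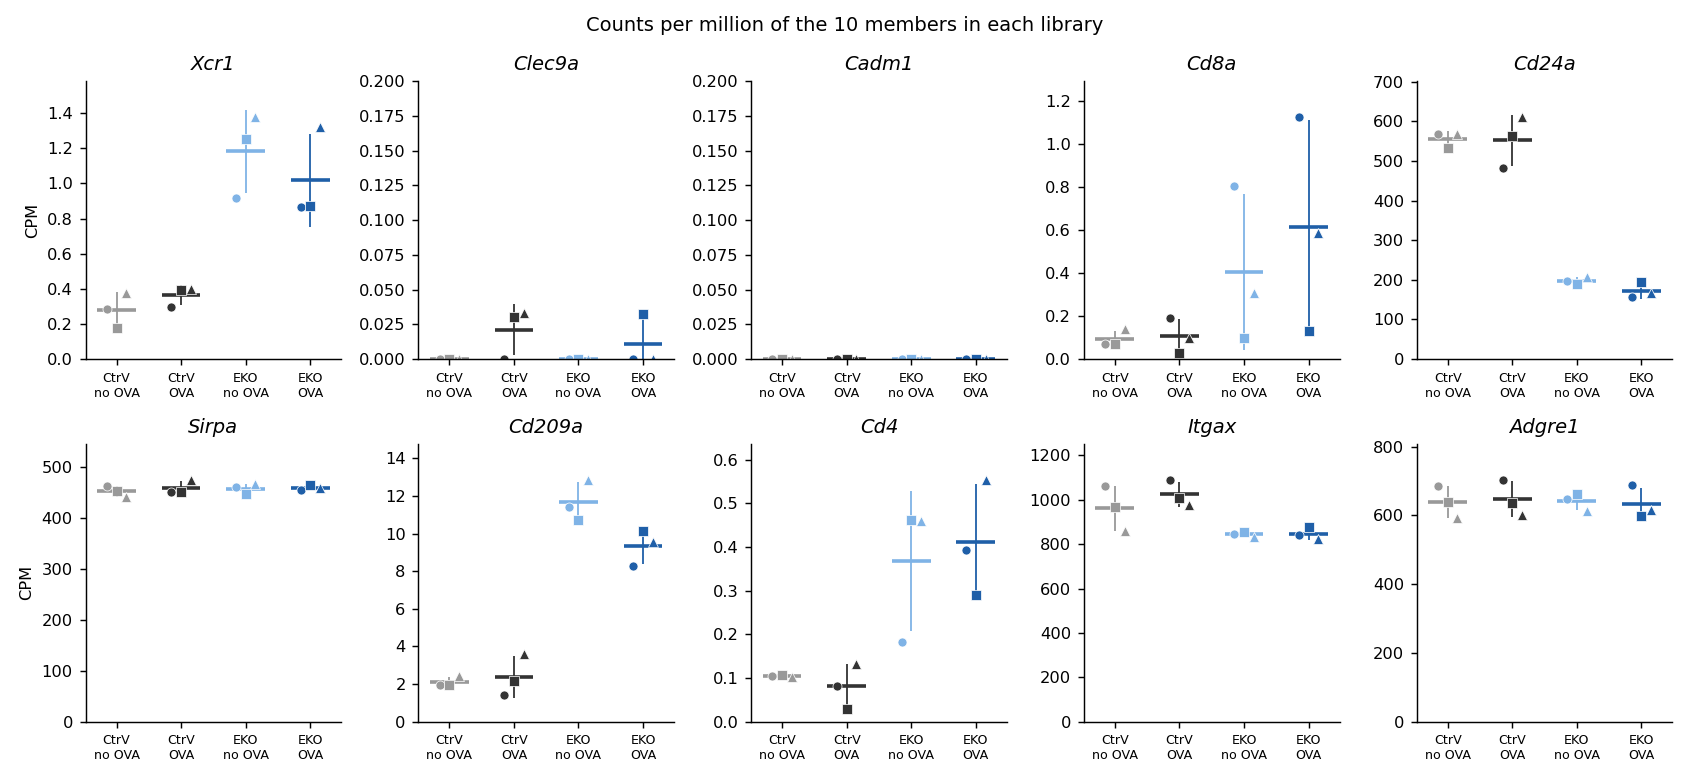
Level of each marker in the 12 libraries, in CPM on a linear axis from 0, with one panel per gene and its own scale. Circles, squares and triangles are replicates 1, 2 and 3, horizontal bars are group means and vertical lines the SD (n = 3), cut at 0. Xcr1 and Cd209a are higher and Cd24a is lower in all 6 EKO-labelled libraries than in any CtrV library, and Sirpa lies between 441 and 474 CPM in all 12.

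Xcr1 encodes the receptor through which cDC1 cells respond to the chemokine XCL1. It lies on chromosome 9 from 123852315 to 123862029 (minus strand). Unpulsed CtrV libraries held 0.282, 0.179 and 0.378 CPM, and OVA-pulsed ones 0.297, 0.393 and 0.398 CPM. Unpulsed EKO libraries held 0.917, 1.25 and 1.38 CPM, and OVA-pulsed ones 0.863, 0.869 and 1.32 CPM. Every EKO library was above every CtrV library, yet the level stayed near 1 CPM, with 5 to 13 counts per CtrV library and 25 to 45 per EKO library. Averaged over pulsing Xcr1 was 3.41-fold higher in EKO cells (log2 fold change 1.77 ± 0.17, SE, adjusted p = 6.5e-06, edgeR). The log2 fold change was 1.47 ± 0.23 with OVA (adjusted p = 0.0004, edgeR) and 2.06 ± 0.25 without (adjusted p = 7.2e-05, edgeR). Xcr1 entered this fit only through 3 EKO libraries. In a fit of all 28881 genes with a count, its log2 fold change averaged over pulsing was 1.76 ± 0.19 (SE, adjusted p = 4.2e-08, edgeR). Of its exon sequence, 1.63% of 50-base stretches also occur in other genes, 429 in all, and the part of such reads in these low counts was not tested. The ligand gene Xcl1 had no count in any library.

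Clec9a and Cadm1, which with Xcr1 define cDC1 cells across tissues, gave almost no counts. Clec9a, a receptor for actin exposed by dead cells (chromosome 6, 129408862 to 129424763, plus strand), had 1 count in 2 CtrV libraries and 1 in a single EKO library, all OVA-pulsed, and 0 in the other 9. Its exons overlap those of Clec1b on the same strand over 5.59% of their length. Cadm1, an adhesion molecule (chromosome 9, 47530173 to 47857637, plus strand), had 0 counts in all 12 libraries, although its exons span 10440 bases and no other annotated gene overlaps them. Of the genes of its binding partners, Nectin3 had 0 counts throughout and Crtam at most 3 in any library. A count of 0 allows up to 3 counts, or 0.0785 to 0.110 CPM depending on the library, and this limit covers counting error only. No fold change is given for either gene.

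Cd8a encodes the CD8 α chain, which in mouse spleen marks cDC1 cells as well as T cells (chromosome 6, 71373427 to 71379173, plus strand). In CtrV cells it had 2, 2 and 4 counts without OVA and 7, 1 and 3 with OVA. In EKO cells it had 22, 3 and 10 counts without OVA and 43, 4 and 19 with OVA. EKO replicates 1 and 3 were above every CtrV library in both conditions, and EKO replicate 2 lay within the CtrV range. Same-numbered EKO libraries averaged 0.966, 0.114 and 0.445 CPM for replicates 1, 2 and 3, so that the highest was 8.48 times the lowest. In CtrV cells these averages were 0.130, 0.0509 and 0.118 CPM, from 9, 3 and 7 counts. Among cDC genes, Flt3, the receptor of a cDC growth factor, and Batf3 were also highest in EKO replicate 1. Flt3 had 7.85, 1.81 and 1.80 CPM in unpulsed and 7.35, 2.25 and 4.40 in OVA-pulsed EKO cells, and Batf3 had 13.3, 6.96 and 5.72 in unpulsed and 14.8, 6.08 and 10.6 in OVA-pulsed ones. Their part in the Cd8a difference was not tested. Cd8a was under the expression filter. In a fit of all 28881 genes with a count, it was higher in EKO cells by a log2 fold change of 2.23 ± 0.34 (SE, adjusted p = 9.8e-06, edgeR), and by 1.64 without both EKO replicate 1 libraries (adjusted p = 0.025, edgeR). With OVA the log2 fold change was 2.45 (adjusted p = 0.00011, edgeR). Without OVA it was 2.00 (adjusted p = 0.0056, edgeR), and that call was lost without unpulsed CtrV replicate 1 (1.07, adjusted p = 0.27), without unpulsed EKO replicate 1 (1.67, adjusted p = 0.097) and without both EKO replicate 1 libraries (1.35, adjusted p = 0.29).

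T cells also carry Cd8a and Cd4, so the genes of T, NK and B cells were read beside them. Of the 18 genes on that list, Cd3e, Cd3g, Trac, Cd2, Themis and Ncr1 had no count in any library. The summed level of all 18 genes was 1.93 to 3.07 CPM in CtrV cells and 7.13 to 9.39 in EKO cells. Most of that sum was Cd5, with means of 2.12 CPM in CtrV and 6.87 in EKO cells. Only Cd5 passed the expression filter (log2 fold change 1.69 ± 0.10, adjusted p = 2.1e-07, edgeR). Cd5 is also found on some dendritic cells. Cd8b1, whose protein pairs with CD8α on most CD8+ T cells, had 1 count in all CtrV libraries together, and in EKO cells it had 0, 2 and 6 counts without OVA and 4, 5 and 1 with OVA.

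Cd24a was the only cDC1 marker at a high level, and it was lower in EKO-labelled cells. It encodes CD24, a small, heavily glycosylated membrane-anchored protein (chromosome 10, 43578284 to 43584265, plus strand). CtrV cells had 568, 533 and 567 CPM without OVA and 482, 563 and 610 with OVA. EKO cells had 196, 190 and 207 CPM without OVA and 156, 194 and 167 with OVA. The groups did not overlap, and the lowest CtrV library was more than 2 times the highest EKO library. Averaged over pulsing Cd24a was 3.00-fold lower (log2 fold change -1.59 ± 0.06, SE, adjusted p = 7.9e-09, edgeR), with a log2 fold change of -1.68 ± 0.09 with OVA (adjusted p = 1.7e-07, edgeR) and -1.50 ± 0.09 without (adjusted p = 4.1e-07, edgeR). Of the 50-base stretches in its exons, 2.75% also occur in the gene Gm6212. Siglecg, whose product is a receptor for CD24 and a relative of Siglec-E, had 19 to 43 counts in CtrV libraries and 150 to 212 in EKO libraries (log2 fold change 2.60 ± 0.14, adjusted p = 6.1e-08, edgeR).

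Sirpa, the leading cDC2 marker, did not pass the test between the lines, and its interval was narrow. It encodes SIRPα, an inhibitory receptor for CD47 (chromosome 2, 129592835 to 129632228, plus strand). CtrV cells had 462, 452 and 441 CPM without OVA and 450, 451 and 474 with OVA, and EKO cells had 459, 446 and 465 without OVA and 453, 463 and 458 with OVA. The log2 fold change was 0.01 ± 0.03 (SE, adjusted p = 0.85, edgeR), and its 95% interval ran from -4.39% to 5.72% in EKO against CtrV cells. Of the genes SIRPα works with, Cd47 was 209.6 ± 11.1 CPM in CtrV and 391 ± 22.5 in EKO cells (SD, n = 6 each; log2 fold change 0.90 ± 0.05, adjusted p = 1.1e-07, edgeR). Ptpn6, which encodes the phosphatase SHP-1 recruited by SIRPα, rose by 0.22 ± 0.05 (log2, SE, adjusted p = 0.0037, edgeR). The ligand gene was thus higher in EKO-labelled cells, while the receptor gene stayed within the interval above.

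Cd209a encodes a C-type lectin of the DC-SIGN family (chromosome 8, 3743397 to 3748984, minus strand). Its CPM values were 1.94, 1.97 and 2.405 in unpulsed and 1.43, 2.15 and 3.61 in OVA-pulsed CtrV cells. They were 11.4, 10.7 and 12.8 in unpulsed and 8.26, 10.1 and 9.56 in OVA-pulsed EKO cells. The groups did not overlap, from 53 to 109 counts per CtrV library and 311 to 420 per EKO library. Averaged over pulsing it was 4.71-fold higher in EKO cells (log2 fold change 2.24 ± 0.13, SE, adjusted p = 1.7e-07, edgeR), the largest log2 fold change of the 6 tested markers. It was 2.00 ± 0.18 with OVA (adjusted p = 9.5e-06, edgeR) and 2.47 ± 0.19 without (adjusted p = 2.9e-06, edgeR). The value with OVA was 1.76 when OVA-pulsed CtrV replicate 1 was left out (adjusted p = 1.6e-05, edgeR). It was 2.33 when OVA-pulsed CtrV replicate 3 was left out (adjusted p = 4.5e-06, edgeR). Of the 6 related lectin genes Cd209b to Cd209g, Cd209c alone passed the filter. It had 0.461 ± 0.162 CPM in CtrV and 1.07 ± 0.388 in EKO cells (SD, n = 6 each). Cd209c thus passed only through EKO libraries and had to be higher there (log2 fold change 1.17 ± 0.24, adjusted p = 0.0017, edgeR).

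Cd4 encodes the coreceptor that many splenic cDC2 cells share with helper T cells (chromosome 6, 124864692 to 124888221, minus strand). CtrV cells had 3, 3 and 3 counts without OVA and 3, 1 and 4 with OVA, and EKO cells had 5, 14 and 15 without OVA and 15, 9 and 18 with OVA. The counts did not overlap, but the highest CtrV library had 4 and the lowest EKO library 5. Both lie near the 3 counts taken as the smallest visible level. Of all tested genes, which do not include Cd4, 35.6% did not overlap between the lines. Cd4 was under the filter, and in the fit of all genes with a count it was higher in EKO cells by a log2 fold change of 2.03 ± 0.37 (SE, adjusted p = 8.1e-05, edgeR). The log2 fold change was 2.29 with OVA (adjusted p = 0.0013, edgeR) and 1.78 without (adjusted p = 0.014, edgeR). The call without OVA was lost without unpulsed CtrV replicate 3 (1.49, adjusted p = 0.12), without unpulsed EKO replicate 2 (1.38, adjusted p = 0.13) and with DESeq2 (1.79, adjusted p = 0.059).

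Itgax encodes the α chain of CD11c/CD18, the integrin by which dendritic cells are usually gated (chromosome 7, 128129547 to 128150657, plus strand). CtrV cells had 1061, 966 and 858 CPM without OVA and 1089, 1006 and 978 with OVA. EKO cells had 847, 855 and 832 CPM without OVA and 839, 879 and 823 with OVA. A single EKO library (879 CPM) exceeded a single CtrV library (858 CPM). Averaged over pulsing the level was 1.17-fold lower (log2 fold change -0.23 ± 0.04, SE, adjusted p = 0.00096, edgeR), and with OVA the log2 fold change was -0.27 ± 0.06 (adjusted p = 0.004, edgeR). Without OVA it was -0.18 ± 0.06 (adjusted p = 0.031, edgeR). That call was lost without unpulsed CtrV replicate 1 (-0.12, adjusted p = 0.15), CtrV replicate 2 (-0.19, adjusted p = 0.067), unpulsed EKO replicate 1 (-0.15, adjusted p = 0.11), EKO replicate 2 (-0.18, adjusted p = 0.079) or both EKO replicate 1 libraries (-0.12, adjusted p = 0.099), and without the replicate number as a block (-0.19, adjusted p = 0.067). Itgb2, the CD18 chain that pairs with CD11c, was lower as well (-0.26 ± 0.04, adjusted p = 8.3e-05, edgeR). Itgad, a neighbouring integrin gene that shares 8.02% of the 50-base stretches of Itgax, had 21.6 CPM in CtrV and 15.2 in EKO cells, far below the level of Itgax.

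Adgre1 encodes F4/80, which marks macrophages and many monocyte-derived cells (chromosome 17, 57358691 to 57483527, plus strand). CtrV cells had 686, 640 and 594 CPM without OVA and 703, 637 and 602 with OVA, and EKO cells had 648, 663 and 612 without OVA and 687, 597 and 616 with OVA. The ranges of the lines overlapped almost fully. The log2 fold change was -0.01 ± 0.04 (SE, adjusted p = 0.79, edgeR), with a 95% interval from -6.57% to 5.17% in EKO against CtrV cells.

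**Figure D2:**
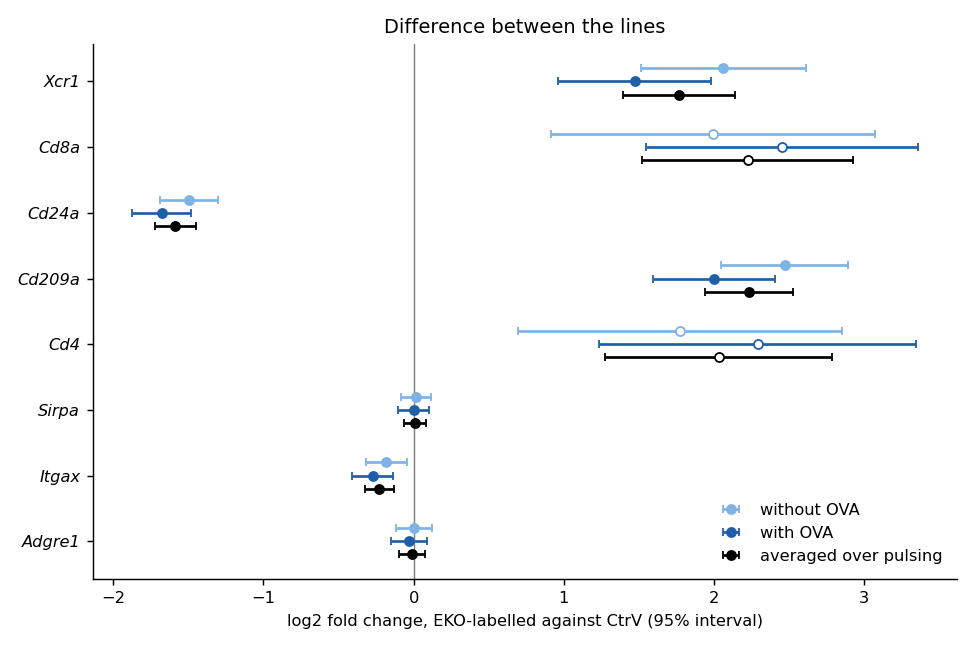
Log2 fold change of EKO-labelled against CtrV cells for each marker with enough counts, without OVA (light), with OVA (dark blue) and averaged over pulsing (black), with 95% intervals of the edgeR fit. Filled points come from the fit of 14079 filtered genes and open points (Cd8a, Cd4) from the fit of all genes with a count. Cd24a at -1.59 stands left of 0, Itgax just left of it, and Sirpa and Adgre1 have intervals that span 0.

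Of the 5 markers that passed the filter in all 12 libraries, 2 (Cd24a and Cd209a) had CPM values that did not overlap between the 6 libraries of each line, where 35.6% of all tested genes did not overlap. Xcr1 did not overlap either, but it entered the test only through EKO libraries, so its separation is no support.

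Levels were compared between genes per exon length (RPKM, with exon lengths from GENCODE rather than from the gene model used for counting). In CtrV cells, Cd24a (215 ± 16.6 RPKM, SD, n = 6), Itgax (207 ± 17.0) and Adgre1 (199 ± 13.6) came highest and overlapped each other, followed by Sirpa (92.6 ± 2.31). Cd209a (1.42 ± 0.468) followed far below. Xcr1 (0.0721 ± 0.0192), Cd8a (0.0274 ± 0.0155), Cd4 (0.0232 ± 0.00868) and Clec9a had ranges that overlapped with the next in order. In EKO cells the order was Adgre1 (197 ± 10.7), Itgax (176 ± 4.10), Sirpa (93.1 ± 1.42), Cd24a (71.6 ± 7.56) and Cd209a (6.63 ± 0.994), none overlapping the next. Xcr1 (0.247 ± 0.0543) and Cd8a (0.140 ± 0.112) overlapped, and so did Cd8a and Cd4 (0.0967 ± 0.0332). The level of Cd24a thus fell from the first place to the fourth, below Sirpa.

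**Figure D3:**
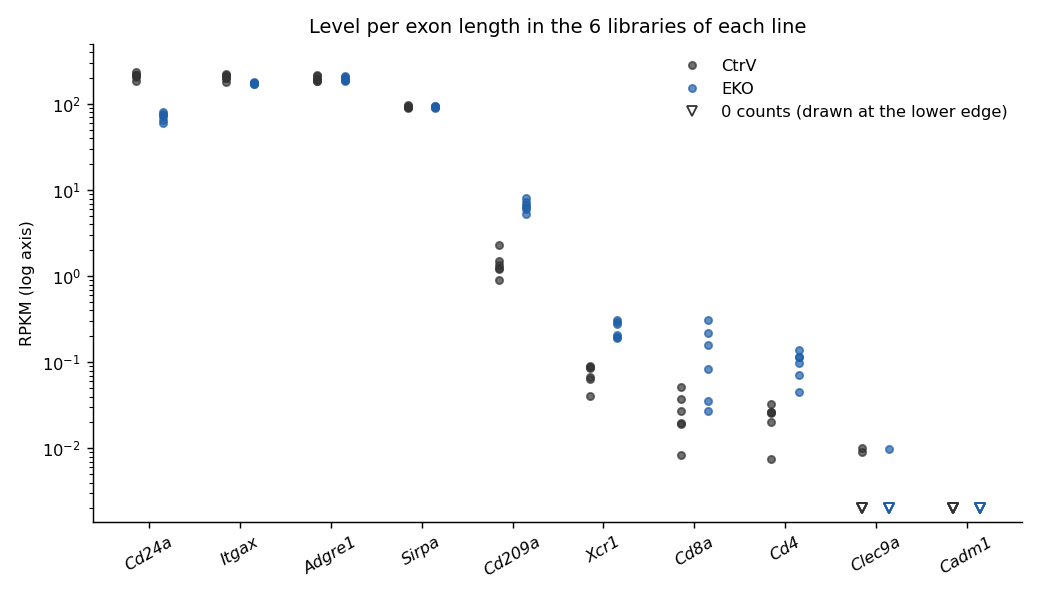
Level per exon length of each marker in the 6 libraries of CtrV (dark) and the 6 of EKO (blue), in RPKM on a log axis, ordered by the CtrV mean. Open triangles at the lower edge are libraries with 0 counts. Cd24a, Itgax, Adgre1 and Sirpa lie well above the other markers, and Cadm1 has 0 counts throughout.

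Sirpa and Cd24a are often plotted against each other to separate cDC2 from cDC1 cells. Their ratio per exon length was 0.427, 0.445 and 0.409 in unpulsed CtrV cells and 0.491, 0.421 and 0.408 in OVA-pulsed ones. In EKO cells it was 1.23, 1.24 and 1.18 without OVA and 1.53, 1.25 and 1.44 with OVA. The ratio was above 1 in every EKO library and under it in every CtrV library. In a bulk sample, a smaller share of CD24-high cells and less Cd24a mRNA per cell cannot be told apart.

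Pulsing with OVA had no detected effect on the markers. Averaged over the lines, 0 of the 6 tested markers and 0% of all tested genes were called between OVA-pulsed and unpulsed cells, and no marker and 314 of 14079 genes had an unadjusted p under 0.05. The difference between the lines did not depend on pulsing for any marker or any gene at an adjusted p under 0.05 (0% called; 0 markers and 269 genes at an unadjusted p under 0.05). DESeq2 and limma voom also made 0 calls in both comparisons. The 95% interval of the effect of pulsing ran from -4.08% to 6.07% for Sirpa, from -15.6% to 1.87% for Cd24a and from -5.84% to 6.00% for Adgre1. It was wider for Xcr1, from -19.7% to 38.8%. Xcr1 was higher with OVA in 3 of 3 CtrV replicates and in 0 of 3 EKO replicates, and Cd209a in 2 of 3 and 0 of 3. The dependence on pulsing was -0.59 ± 0.36 for Xcr1 and -0.47 ± 0.27 for Cd209a on the log2 scale (SE, adjusted p = 1 for both, edgeR).

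Other genes tied to each subset were found on both sides. Of 20 cDC1-associated genes other than the markers, 16 were tested, 7 rose and 8 fell in the EKO-labelled line, with a median log2 fold change of -0.12. Wdfy4, needed for cross-presentation, fell by 0.22 on the log2 scale (adjusted p = 0.016, edgeR) and Id2, a transcriptional regulator of cDC1 development, fell by 0.79 (adjusted p = 6.1e-08, edgeR), whereas Irf8 rose by 1.22 ± 0.11 (SE, adjusted p = 3.2e-06, edgeR) and Batf3 by 1.46 ± 0.21 (adjusted p = 0.00012, edgeR). Itgae, the CD103 gene of tissue cDC1 cells, fell furthest, from 87.8 ± 10.4 to 1.51 ± 0.178 CPM (SD, n = 6 each). Of 18 tested cDC2-associated genes, 9 were higher and 7 lower (median 0.12). Among these Mgl2, a lectin of cDC2 cells, fell by 0.35 (adjusted p = 0.00028, edgeR), and Irf4 (0.14 ± 0.10, adjusted p = 0.25) and Rbpj (0.11 ± 0.05, adjusted p = 0.073) did not pass the test. Over all tested genes the shares were 31.3% higher and 29.1% lower, and the median was -0.0018. On the cDC1 list, Cd36 (0.344 CPM in CtrV and 1.71 in EKO cells) passed the filter only through EKO libraries. On the cDC2 list, Klf4 (1.57 and 0.577 CPM) passed only through CtrV libraries. The directions of Cd36 and Klf4 were set by the filter.

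Genes common to cDCs were also mixed, with 5 of 11 higher and 3 lower (median 0.14). H2-Ab1 rose (0.52 ± 0.04, adjusted p = 6.9e-07, edgeR), while Cd74, the invariant chain, and H2-Eb1 fell by 0.13 and 0.23 (adjusted p = 0.032 and 0.00058, edgeR). The monocyte and macrophage genes differed from this. Like the other lists, theirs was chosen with earlier results of these data known. Of its 23 genes, 15 were tested, and 14 were higher and 0 lower, with a median log2 fold change of 1.16. Over all tested genes, 31.3% were higher and 29.1% lower. Maf (0.274 CPM in CtrV and 1.19 in EKO cells) and Cx3cr1 (0.286 and 1.12) passed the filter only through EKO libraries and had to be higher there. The same may hold for Marco (0.559 and 1.37). Among the higher genes were Csf1r, the M-CSF receptor (0.53 ± 0.04, adjusted p = 1.9e-06), Itgam (0.20 ± 0.05, adjusted p = 0.0079) and the complement gene C1qb (0.60 ± 0.06, adjusted p = 1.7e-05, all edgeR). Itgam was highest in EKO replicate 1, with 858 CPM unpulsed and 878 OVA-pulsed. Its other EKO libraries (588 to 660 CPM) lay within the CtrV range (524 to 689 CPM). The summed level of the 23 genes was 2382 to 2704 CPM in the CtrV libraries and 3893 to 4310.45 in the EKO libraries, and Mrc1 and Vsig4 had no count. Of the others under the filter, Ly6c2 and Cd163 had at most 1 count in any library and Ccr2 at most 12. Apoe (0.585 CPM in CtrV and 0.415 in EKO cells) and Timd4 (0.0592 and 0) had lower means in EKO cells, and Spic (0.0211 and 0.360) a higher one. Adgre1, a marker of the same cells, had 594 to 703 CPM in CtrV and 597 to 687 in EKO libraries. The part of such genes in the marker differences was not tested. Of 12 genes of plasmacytoid dendritic cells, 3 were tested (Bst2, Pacsin1 and Runx2). All 3 were higher, beside 31.3% of all tested genes. The defining Siglech, under the filter, went the other way, with 0.243 CPM in CtrV and 0.0336 in EKO cells and at most 11 counts. Tcf4 and Ly6d had no count. Among the other genes under the filter, means were lower in EKO cells for Spib, Klra17 and Klk1 and higher for Ccr9, Cox6a2 and Ly6c1.

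**Figure D4:**
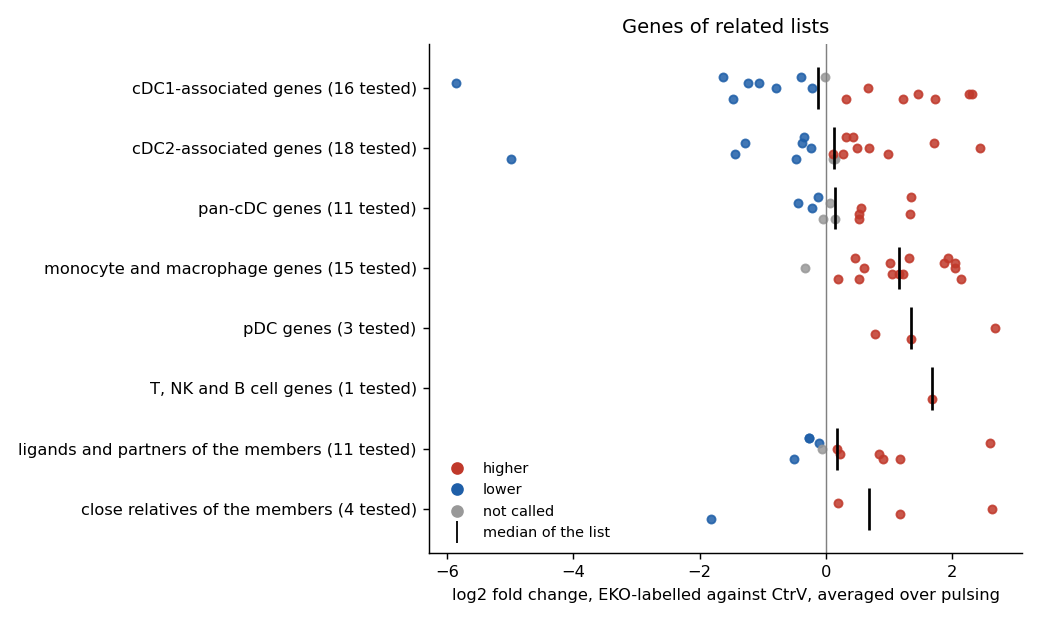
Log2 fold change between the lines, averaged over pulsing, of every tested gene on 8 lists, each point a gene (red higher, blue lower, grey not called in edgeR) and each black bar the list median. The cDC1 and cDC2 lists lie on both sides of 0, with medians of -0.12 and 0.12, and the monocyte and macrophage list has 14 of 15 genes to the right.

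Of 20 ligands, partners and signalling molecules of the markers, 11 were tested, 6 were higher and 4 lower (median 0.18), beside 31.3% higher and 29.1% lower over all tested genes. Syk, a kinase downstream of many myeloid receptors, rose by 1.17 ± 0.04 (log2, SE, adjusted p = 3.4e-09, edgeR). Of the 21 close relatives of the markers found in the table, 4 were tested, and these were Itgal (2.63 ± 0.05, adjusted p = 1e-10), Itgam and Cd209c, which were higher, and Clec7a, which was lower (-1.82 ± 0.17, adjusted p = 6e-06, all edgeR). Cd209c passed the filter only through EKO libraries, so its direction was set by the filter. Itgal and Itgam encode α chains that share the CD18 partner with CD11c, so the 4 α-chain genes of this family moved in both directions (Itgal and Itgam higher, Itgax and Itgad lower). For Itgam, the EKO libraries other than replicate 1 lay within the CtrV range.

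The genes whose level followed a marker most closely over the 12 libraries were found by the root mean square difference of mean-centred log2 CPM. For Xcr1 these were Asgr2 (0.195) and Lsr (0.219), for Cd24a Igflr1 (0.0869) and Eef2k (0.0937), and for Cd209a Creg2 (0.211) and Pip4p2 (0.215), all values on the log2 scale. All 12 points share the lines and their libraries, and this likeness is a description only. Igflr1 had 29.0 CPM in CtrV and 10.1 in EKO cells, and Asgr2 had 188.5 and 628 CPM.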

How the data were processed

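Counts per gene in 12 RNA-seq libraries of Sp37A3 cells (4 groups of 3, groups and replicate numbers from the labels) were analysed. The authors deposited raw counts, after alignment to mm10 with STAR, with a single location reported for reads that fitted several places, and counting on exon unions of Ensembl genes with featureCounts. Strand use in counting is not given in the sources used here. From these, CPM on TMM-scaled totals, RPKM and fits were computed with edgeR 4.0.16 in R 4.3.3 (quasi-likelihood, legacy deviances, group and replicate number as covariates as in the study, Benjamini-Hochberg over 14079 genes with log2 CPM above 0 in at least 2 libraries, prior count 2). SE is the absolute log2 fold change over the square root of F. Alternatives used DESeq2 1.42.0 and limma 3.58.1. The edgeR, DESeq2 and limma voom fits were tested on simulated counts for the difference between the lines and its dependence on pulsing. The other steps were not tested in this way. The 10 markers and the lists were chosen with earlier results of these data known. All markers are named, with the 3 most abundant tested genes of most lists; Zbtb46, Kit, Flt3, Batf3, Itgae, Cd47, Siglecg, Itgad, Cd209c, Cd8b1 and other genes named singly were added after their values were seen. Whether libraries with the same number share a culture is not stated. Deviations of same-numbered libraries had correlations of 0.448, 0.292 and 0.289 between the lines with OVA and 0.060, -0.012 and 0.263 without. Between unpulsed and OVA-pulsed libraries of a line they were 0.077, 0.179 and 0.373 in CtrV and 0.706, 0.351 and 0.411 in EKO cells. No differently numbered libraries were set beside them, so these values do not show whether the libraries are paired. The fits averaged over pulsing treat the 12 libraries as separate samples, with the replicate number as the only block. With same-numbered libraries of a line summed, 4 markers were still called, at larger adjusted p (edgeR). These were 0.00069 for Xcr1, 0.023 for Itgax, 1.5e-05 for Cd24a and 7.1e-05 for Cd209a. Positions and names come from GENCODE M21 of GRCm38, which is not the gene model of the counts.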

Additional observations from a re-analysis of the deposited data

How the results depend on the processing

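Over the 6 tested markers and 5 comparisons (30 results), 653 of 660 alternative values kept their side of the threshold, 7 lost the call and 0 reversed a call. Sirpa and Adgre1 had no call to lose, nor had any marker for the effect of pulsing or the dependence on it. Such values could only gain a call, and 0 did. The alternatives were RLE and upper-quartile scaling, no filter, filterByExpr, DESeq2, limma voom, bias-adjusted deviances, no replicate block, a culture block, summed or compared libraries alone, and each library left out. Leaving out both EKO replicate 1 libraries, and the fits of Cd8a and Cd4 that combine no filter with a further change, were added after the data were seen. All 7 losses were among the 22 alternative values for Itgax without OVA. Its log2 fold change there ranged from -0.24 to -0.12, with -0.19 (adjusted p = 0.12, edgeR) for the 6 compared libraries alone. Without the replicate block, 4 of 6 markers were called between the lines averaged over pulsing (7477 of 14079 genes) and 3 of 6 without OVA (5337 of 14079 genes). Averaged over pulsing, 6 of 9 markers were called without the filter (8946 of 28881 genes) and 6 of 8 with filterByExpr (9062 of 16021 genes), Cd8a and Cd4 being added. Over 102 alternative values for these genes, 7 lost the call, all without OVA. Beside those given above, Cd8a lost its call without the block (2.02, adjusted p = 0.076, edgeR). An absolute log2 fold change of at least 1 kept 3 markers and 1254 of 8512 genes averaged over pulsing, 1268 of 6619 with OVA and 1241 of 6537 without. No other alternative moved these counts over all genes by more than 1.5 times. Depth limits what can be said of Xcr1, Cd8a and Cd4, which had few counts, and of Clec9a and Cadm1, which had almost none or none.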
